A study of Caenorhabditis elegans with 2 samples.

Results

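The glutathione and thioredoxin systems keep the thiol groups of cell proteins reduced and remove peroxides, and in *C. elegans* their genes are among those studied as targets of SKN-1, a transcription factor of the Nrf family. Glutathione is a tripeptide made by a ligase and a synthetase, returned to its reduced form by a reductase and used by peroxidases. In the parallel system, thioredoxin reductases use NADPH to reduce thioredoxins, which in turn serve peroxiredoxins. The genes described are *gcs-1* and *gss-1* (glutathione synthesis), *gsr-1* (glutathione reductase), *gpx-1* (a glutathione peroxidase), *trxr-1* and *trxr-2* (thioredoxin reductases) and *prdx-2* and *prdx-3* (peroxiredoxins). They were taken by name, 8 of 19973 protein-coding genes on the nuclear chromosomes, and all 8 names matched the annotation.

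The data came from chromatin immunoprecipitation followed by sequencing of eGFP-tagged SKN-1 in whole L4 larvae of strain OP342. This strain carries the transgene insertion wgIs342, which supplies the tagged protein, in the background of the *unc-119(ed3)* mutation on chromosome III. The 2 biological replicates, both labelled as pools of males and females, form the only group, and the labels name no treatment. Whole animals were used, so the values average over tissues, and no untagged worms are among the samples. For each gene, every region was collected whose summit lay in the gene body or up to 2000 bp upstream of the outermost annotated start. This was done in the authors' list from pooled replicates (29768 regions) and in each replicate's own list (30000 regions each). Each region has the signal value of the authors' peak caller, whose scale is not stated, and a rank by that value within its list (1 = strongest). The lists hold background regions as well as peaks, so being listed does not mark a region as bound. Read depth is unknown, and no test was possible between conditions.

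The 8 windows held 35 regions in all, 13 pooled, 13 of replicate 1 and 9 of replicate 2, and no strong pooled region was among them. No window contained any of the 97 peaks that passed the authors' threshold on reproducibility (0 of 8 genes, with a background of 0.591% of all protein-coding genes), and the nearest such peak lay 67216 bp beyond the window of *prdx-3*. The highest pooled signal was 15.0, at *gcs-1*, while the weakest thresholded peak had 29.0. The deposited −log10 q-value of the 13 pooled regions was low, from 0.0224 at *gss-1* to 0.54 at *gcs-1*. Over the 35 regions the highest was 2.68, at *prdx-2* in replicate 1. A pooled region of any strength was present at 7 of the 8 genes, where 73.1% of all protein-coding genes had one. None of the 8 had one of the 1000 strongest pooled regions, where 5.31% of genes did. A replicate 1 region lay at 7 genes (background 73.6%) and a replicate 2 region at 6 (background 73.9%). Of the 8 genes, 6 had a region in all 3 lists (background 53.2%) and *gpx-1* alone had none in any (background 9.34%). These shares lie near those of genes in general, and a count over 8 genes cannot separate small differences.

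The DNA under selected regions is shown first, most of it with a match to the known SKN-1 binding site. That site is WWTRTCAT, where W is A or T and R is A or G, and it was searched on both strands. Matches at *prdx-3* and under the intronic region of *gsr-1* are described further on and not printed. All sequences are from WBcel235 (ce11), printed 5′ to 3′ on the strand of the gene, and capitals mark the site in either orientation (a site on the opposite strand reads ATGAYAWW, with Y for C or T). Positions are distances from the annotated start, which is 0. The first pair are the stretches upstream of *gcs-1*, the third is the stretch around its summit in the coding part of the gene, and the fourth is the replicate 1 region upstream of *gss-1*, shown because it holds 3 sites. The fifth is the site under a pooled region upstream of *gsr-1*. The last is the centre of the region with the highest rank within its own list, a replicate 1 region in the coding part of *prdx-2*, shown because it holds no site.
gcs-1, -769 to -569 (chrII:9038870-9039070, minus strand): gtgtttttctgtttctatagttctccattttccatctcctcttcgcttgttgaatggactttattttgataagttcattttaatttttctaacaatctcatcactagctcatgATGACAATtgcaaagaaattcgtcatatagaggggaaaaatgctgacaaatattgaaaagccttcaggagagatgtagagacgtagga
gcs-1, -209 to -1 (chrII:9038302-9038510, minus strand): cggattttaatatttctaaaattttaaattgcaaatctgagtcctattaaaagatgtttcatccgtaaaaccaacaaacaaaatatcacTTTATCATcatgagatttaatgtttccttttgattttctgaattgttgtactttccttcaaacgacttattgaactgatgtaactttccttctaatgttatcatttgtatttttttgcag
gcs-1, 2100 to 2200 (chrII:9036101-9036201, minus strand): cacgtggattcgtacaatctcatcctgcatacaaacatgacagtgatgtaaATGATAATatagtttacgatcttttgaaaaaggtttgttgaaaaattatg
gss-1, -314 to -75 (chrII:9416506-9416745, minus strand): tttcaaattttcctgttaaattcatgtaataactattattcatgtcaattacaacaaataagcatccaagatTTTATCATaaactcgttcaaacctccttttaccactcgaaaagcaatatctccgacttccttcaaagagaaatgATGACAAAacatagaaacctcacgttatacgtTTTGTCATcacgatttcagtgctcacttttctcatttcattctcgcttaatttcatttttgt
gsr-1, -391 to -291 (chrIII:3650516-3650616, plus strand): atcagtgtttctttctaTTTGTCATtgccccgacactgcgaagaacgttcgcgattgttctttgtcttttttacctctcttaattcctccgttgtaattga
prdx-2, 1160 to 1260 (chrII:5379355-5379455, plus strand): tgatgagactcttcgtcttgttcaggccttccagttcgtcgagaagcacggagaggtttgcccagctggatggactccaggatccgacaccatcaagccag

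**Figure D1:**
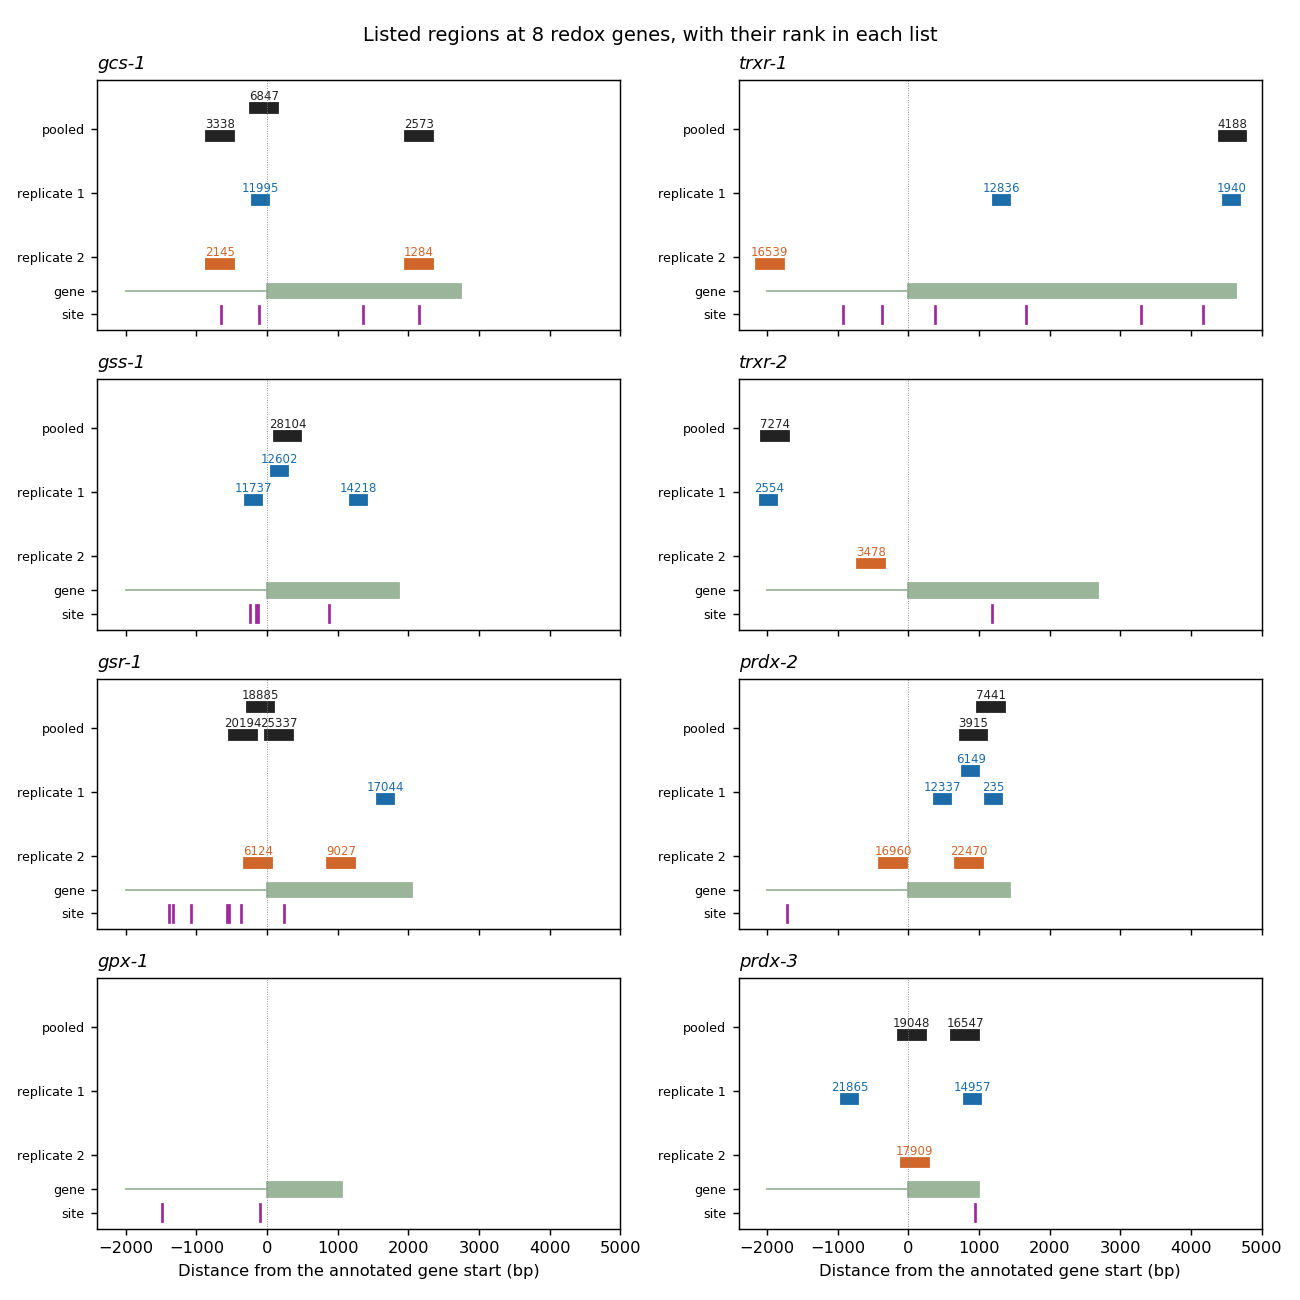
Regions of the pooled list (black), replicate 1 (blue) and replicate 2 (orange) at each of the 8 genes, drawn to scale against the distance from the annotated gene start in bp, with the rank of each region above it; bars of neighbouring regions are staggered in height only for legibility. Green boxes are genes with 2000 bp upstream as a line, and purple ticks are WWTRTCAT sites. At *gcs-1* a site lies under each of the 3 pooled regions, *gpx-1* has no region, and at *trxr-1* and *prdx-2* the strongest regions lie in the gene body.

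The gene of the first step of glutathione synthesis, *gcs-1* (WBGene00001527, chrII:9035562-9038301, minus strand), had the strongest pooled signal of the group. This gene encodes the catalytic subunit of glutamate-cysteine ligase, and a fusion of its promoter to a fluorescent protein is a common reporter of SKN-1 activity. Its strongest pooled region (chrII:9035956-9036345) had a signal of 15.0 at rank 2573 and lay not in the promoter but in a coding exon, 2150 bp downstream of the start. The second (chrII:9038775-9039164) had a signal of 14.2 at rank 3338, with its summit 669 bp upstream inside the annotated noncoding RNA gene *F37B12.11*. The last (chrII:9038150-9038539) was centred 44 bp upstream of the start, with a signal of 12.1 at rank 6847. Of all protein-coding genes, 12.6% had a stronger best pooled region than *gcs-1*, so the gene stood in the upper part of the ranking and far from its top.

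The replicates placed the signal at *gcs-1* differently. Replicate 2 listed the coding-exon region, with a signal of 10.8 at rank 1284, and the region 669 bp upstream, with a signal of 9.80 at rank 2145. Both summits fell within 4 bp of the pooled ones. Replicate 1 listed neither, and had a single region, centred 90 bp upstream with a signal of 5.59 at rank 11995, which overlapped the pooled region at the start. No replicate 1 region at this gene overlapped a replicate 2 region, and 2 of its 3 pooled regions overlapped a listed region of replicate 2 only. The share of genes with a stronger best region was 43.7% in replicate 1 and 6.80% in replicate 2.

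Each of the 3 pooled regions at *gcs-1* had a WWTRTCAT site within 100 bp of its summit, at distances of 4, 16 and 72 bp for the coding, upstream and start regions. Each region held 1 site over its whole width, the one in capitals in the first 3 sequences above. Over all protein-coding gene windows, 9.24% of pooled regions had a site that near, and of the 2183 genes with 3 pooled regions 4 (0.183%) had one at all 3. *gcs-1* is itself among these 4, and the last count was chosen after its sites were seen. The window of *gcs-1* holds 4 sites, and the 1 without a region lies 1360 bp downstream of the start. The replicate 1 region was centred 26 bp from the site at -113. The upstream stretch next to the start ends in a run of t followed by gcag, the form of a splice acceptor. Many *C. elegans* messages receive a spliced leader, so an annotated start can be the splice site and not the point where transcription begins.

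The second gene of synthesis, *gss-1* (WBGene00010941, chrII:9414563-9416431, minus strand), encodes glutathione synthetase and was listed almost only in replicate 1. Its one pooled region (chrII:9415948-9416337) had a signal of 7.20 at rank 28104, with 94.4% of pooled regions stronger, and was centred in a coding exon 288 bp downstream of the start. Replicate 1 had 3 regions, centred 195 bp upstream (signal 5.63, rank 11737), 177 bp downstream (signal 5.50, rank 12602) and 1299 bp downstream (signal 5.29, rank 14218). Replicate 2 had none, its nearest summit lying 1835 bp outside the window at rank 8567. The gene thus had middling regions in one replicate and nothing listed in the other.

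The replicate 1 region upstream of *gss-1* (chrII:9416506-9416745) held 3 sites within 100 bp of its summit, the nearest bases of which lay 129, 161 and 235 bp upstream of the start. They were centred 62, 30 and 43 bp from the summit. Only 12 of the 25615 replicate 1 regions in protein-coding gene windows (0.0468%) held at least 3 sites that near. This feature was singled out after it was seen. No pooled region and no replicate 2 region covered any of the 3 sites, and the summit lay inside the annotated noncoding RNA gene *M176.15*.

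Glutathione reductase, which uses NADPH to restore reduced glutathione, is encoded by *gsr-1* (WBGene00008117, chrIII:3650907-3652958, plus strand). It had 3 weak, overlapping pooled regions around its start. Their summits lay 341 bp upstream (signal 8.45, rank 20194), 95 bp upstream (signal 8.69, rank 18885) and, in an intron, 165 bp downstream (signal 7.61, rank 25337). Of all protein-coding genes, 57.7% had a stronger best pooled region. Replicate 2 had 1 region over the same stretch, centred 123 bp upstream with a signal of 7.68 at rank 6124, which overlapped all 3 pooled regions, and another 1049 bp downstream at rank 9027. Replicate 1 had no region there, and listed only a region 1672 bp downstream in a coding exon (signal 4.96, rank 17044).

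The start of *gsr-1* lies close to that of *madf-8*, which runs in the opposite direction with a gap of 74 bp between the genes. The summits at 341 and 95 bp upstream both fell inside *madf-8*, in an intron and in its 5′ UTR, and were nearer to its start (266 and 20 bp into that gene). The promoter signal can therefore be assigned to neither gene. Upstream of *gsr-1* there were 6 WWTRTCAT sites within 2000 bp, a number reached or passed by 57 genes (0.285%). The limit of 6 was taken from *gsr-1* itself, after its count was seen. Only 1 of the 6 sites lay inside a pooled region, the one printed above, centred 29 bp from the summit. A seventh site, intronic and 235 bp past the start, lay 73 bp from the weakest of the 3 summits.

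The peroxidase gene *gpx-1* (WBGene00009165, chrI:9780349-9781413, plus strand), one of several glutathione peroxidase genes of the worm, had no region in any list. The nearest pooled summit lay 4094 bp upstream of its start at rank 29218, the nearest of replicate 2 lay 4858 bp upstream at rank 14679, and the nearest of replicate 1 lay 3132 bp downstream of the start, past the gene end, at rank 20503. All lie outside the window. Its upstream stretch nonetheless holds 2 sites, the nearer of them 96 bp from the start. Sites without a listed region were thus found close to a start as well.

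**Figure D2:**
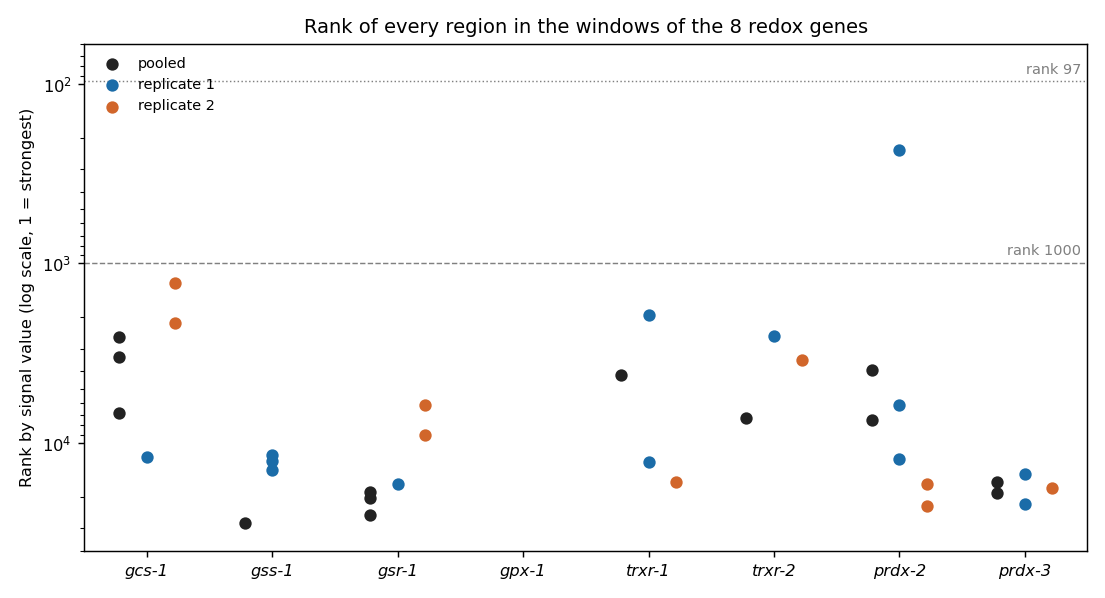
Rank by signal value of each of the 35 regions (log axis, 1 = strongest at the top) for the 8 genes, in the pooled list (black), replicate 1 (blue) and replicate 2 (orange); dashed and dotted lines mark ranks 1000 and 97. One point, replicate 1 at *prdx-2* (rank 235), lies above rank 1000, and the best ranks of replicates 1 and 2 are far apart at *gcs-1* (11995 and 1284), *trxr-1* (1940 and 16539) and *prdx-2* (235 and 16960).

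Of the thioredoxin reductases, *trxr-1* (WBGene00015553, chrIV:7011954-7016586, plus strand) encodes the cytosolic enzyme, known as the selenoprotein of the worm. Its signal lay at the far end of the gene. The only pooled region (chrIV:7016349-7016738) had a signal of 13.6 at rank 4188, with its summit in the 3′ UTR, 4590 bp from the start and 42 bp before the annotated end. Replicate 1 had a region at the same place, with a signal of 8.75 at rank 1940 and a summit 20 bp from the pooled one, and a weaker region 1318 bp downstream of the start (signal 5.47, rank 12836). The replicate 2 region that overlapped there ranked 21887, and its summit lay beyond the gene end. Within the window replicate 2 listed a single region, 1960 bp upstream inside the neighbouring gene *C25A8.2* (signal 5.52, rank 16539). The window held 6 sites, none of them inside a region of any list. The nearest start to the 3′ region was that of *gldi-4*, 1080 bp further on.

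The mitochondrial enzyme is encoded by *trxr-2* (WBGene00014028, chrIII:8913769-8916459, plus strand), and each list placed 1 region upstream of it. The pooled region (chrIII:8911691-8912080) had a signal of 11.9 at rank 7274, centred 1883 bp upstream. Replicate 1 had a region 1974 bp upstream with a signal of 8.27 at rank 2554, which overlapped the pooled one. Replicate 2 had its region elsewhere, 521 bp upstream with a signal of 8.83 at rank 3478, and neither other list had a region that overlapped it. The gene *tpk-1*, which encodes thiamine pyrophosphokinase, lies between, on the same strand and 136 bp upstream of *trxr-2*. The pooled and replicate 1 summits lay 258 and 349 bp upstream of *tpk-1*, and the replicate 2 summit lay in a coding exon of it. Both replicates thus listed a region upstream, at different places, and the window holds 1 site, 1190 bp downstream of the start and inside no region.

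The peroxiredoxin gene *prdx-2* (WBGene00006434, chrII:5378195-5379631, plus strand), whose product reduces hydrogen peroxide in the cytosol, had the highest rank of any region in the group, in replicate 1 only. That region (chrII:5379285-5379524) had a signal of 13.5 at rank 235, with 0.780% of the regions of replicate 1 stronger. It was centred in a coding exon, 1210 bp downstream of the outermost start and 226 bp before the gene end. Replicate 1 had further regions at 885 bp (signal 6.79, rank 6149) and 489 bp downstream (signal 5.54, rank 12337). Replicate 2 had weak regions 862 bp downstream (signal 4.77, rank 22470) and 214 bp upstream (signal 5.46, rank 16960). The replicate 2 region that overlapped the strongest region of replicate 1 ranked 18211, with its summit past the gene end.

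In the pooled list, *prdx-2* had a region at 921 bp (signal 13.7, rank 3915) and one at 1170 bp downstream (signal 11.8, rank 7441), both in coding exons and overlapping each other. It is the only gene of the group with one of the 1000 strongest regions of a replicate, where 5.28% of genes had one in replicate 1. In replicate 2, with a background of 5.33%, none of the 8 did. The gene has 3 transcripts with separate starts, and the 921 bp summit lay 274 bp downstream of the nearest of them. For the 1170 bp summit and the rank 235 summit of replicate 1 that distance was 523 and 563 bp. By outermost gene starts alone, these 3 summits were nearest to *pkc-3*, at 911, 662 and 622 bp upstream of it. The pooled regions of *prdx-2* were the richest in G and C of the group, at 53.7% and 48.8% over the 201 bp around the summit. The median over all pooled regions in gene windows was 38.3%. The only site in the window lay 1718 bp upstream of the start.

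The other peroxiredoxin gene, *prdx-3* (WBGene00011110, chrIII:4407444-4408437, plus strand), encodes the mitochondrial form and had weak regions in all 3 lists. The pooled ones lay 50 bp downstream of the start (signal 8.66, rank 19048) and, in an intron, 803 bp downstream (signal 9.17, rank 16547). Replicate 2 had a region overlapping the first (signal 5.33, rank 17909). Replicate 1 had one overlapping the second (signal 5.20, rank 14957), with a summit in the 3′ UTR, and one 832 bp upstream in a coding exon of *rnp-4* (signal 4.47, rank 21865). The replicates did not overlap at this gene. Its 1 site lay in the 3′ UTR, 942 bp from the start and 37 bp from the replicate 1 summit.

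The overlap of the lists was counted over the 8 genes. Of the 13 replicate 1 regions, 3 overlapped a replicate 2 region by at least 1 bp, 1 at *trxr-1* and 2 at *prdx-2*, all in the gene body, where 27.8% of replicate 1 regions in all gene windows overlapped one. Of the 9 replicate 2 regions, 1 overlapped a replicate 1 region (background 29.2%). Of the 13 pooled regions, 7 overlapped a region of replicate 1 (background 54.5%), 9 one of replicate 2 (background 60.8%) and 3 overlapped regions of both (background 29.2%). All 13 thus overlapped a region of at least 1 replicate, as did most pooled regions in gene windows by the shares given. Region width was fixed at 240 bp in replicate 1 and 396 bp in replicate 2, so the same stretch is covered unequally. None of the 4 upstream regions of replicate 1 overlapped a replicate 2 region, where 28.9% of the replicate 1 regions upstream of protein-coding genes did, and 4 regions are too few to set against that share.

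The regions were spread over upstream stretches and gene bodies. Of the 13 pooled regions, 5 lay upstream and 8 in the gene body, 5 of these in coding exons, 2 in introns and 1 in a 3′ UTR. These classes were not counted over all pooled regions, so no background can be set beside them. The strongest pooled region lay in the gene body at 5 of the 7 genes that had one, where the share over all genes was 53.2%. Of the 14 upstream regions of the 3 lists, 8 lay inside another protein-coding gene or nearer to its start, where the share over all protein-coding genes was 57%. Density was 0.388 pooled regions per kb of window, against 0.318 over all protein-coding genes, with a median window of 3960 bp against 4027 bp. In the replicates the density was 0.388 against 0.319 (replicate 1) and 0.269 against 0.319 (replicate 2). The median signal of the 13 pooled regions was 11.8, against 9.56 over all pooled regions in gene windows. For the regions of the replicates it was 5.54 against 5.2 (replicate 1) and 6.88 against 5.76 (replicate 2). The median best signal per gene was taken only over genes with a region in the list, and was 11.9 against 11.0 in the pooled list. That median per gene was 5.63 against 6.01 in replicate 1 and 6.60 against 6.80 in replicate 2, below the value for all such genes in both.

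Taken over the group, 5 of the 13 pooled regions had a WWTRTCAT site within 100 bp of the summit, at *gcs-1* and *gsr-1*, with the 9.24% of all such regions as background. In the lists of the replicates the counts were 3 of 13 (background 9.30%) and 2 of 9 (background 9.71%). As genes, 2 of the 8 had a site that near to a pooled summit, where 13.7% of all genes did. A site anywhere in the 2000 bp upstream was present at 6 of the 8, and at 66.2% of all protein-coding genes. The windows held 26 sites, of which 6 lay inside a pooled region. These are matches of letters and were not shown to be bound. A and T make up most of the site and of the regions at *gcs-1*, where the pooled ones had 33.8% to 34.8% of G and C and the one of replicate 1 had 27.9%, and no correction for base composition was made.

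Other genes of the same pathways were counted in the same windows, beside the 73.1% of all protein-coding genes with a pooled region and the 5.31% with one of the 1000 strongest. Of 23 further thiol enzyme genes (glutathione peroxidases, thioredoxins, glutaredoxins, omega-class transferases and relatives), 13 had a pooled region and none had one of the 1000 strongest, and the best, at *trx-3*, had a signal of 14.7 at rank 2875. Of 6 genes of NADPH supply, 5 had a pooled region, and of 7 genes of cysteine supply, 6 had one, again with none among the 1000 strongest, and at lists of this size that count lies near the background. In these 2 lists the best were at *idh-1*, encoding an isocitrate dehydrogenase (signal 17.8, rank 1094, 1035 bp upstream), and at *cbs-2*, a cystathionine beta-synthase gene (signal 17.9, rank 1055, in a coding exon). The *idh-1* region overlapped regions of both replicates, at ranks 1568 and 1079. In the single replicates, *idh-1* had one of the 1000 strongest regions in both (rank 550 in replicate 1 and 683 in replicate 2, at separate places) and *men-1*, a malic enzyme gene, in replicate 2 (rank 381). The genes in this paragraph were named after their values were seen.

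**Figure D3:**
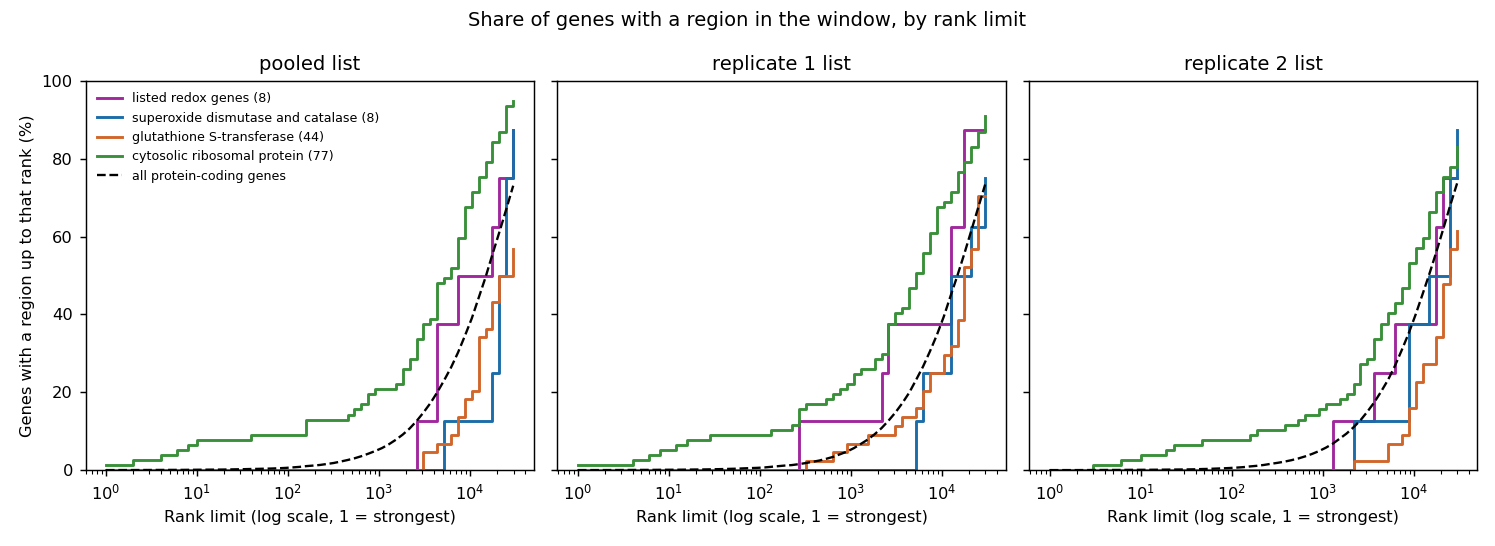
Percentage of genes with a region in their window up to each rank limit (log axis), for the pooled list and each replicate; lines show the 8 redox genes (purple), 8 superoxide dismutase and catalase genes (blue), 44 glutathione S-transferase genes (orange), 77 cytosolic ribosomal protein genes (green) and all protein-coding genes (dashed). The purple line starts at rank 2573, 235 and 1284 in the 3 lists, while the ribosomal protein genes rise from the first ranks on.

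Beside related groups counted in the same way, the redox genes were placed as follows. Of 8 superoxide dismutase and catalase genes, 7 had a pooled region, and of 44 glutathione S-transferase genes 25 did (56.8%). The share over all protein-coding genes was 73.1%. Neither group had any of the 1000 strongest pooled regions, where 5.31% of all protein-coding genes had one. The highest pooled signals were 13.3 and 14.7, against 15.0 for the redox genes. In replicate 1, 3 of the 44 glutathione S-transferase genes had one of the 1000 strongest regions, where 5.28% of all protein-coding genes did. These were *gst-22* (rank 298), *gst-44* (rank 570) and *gst-43* (rank 891), named after their values were seen. By outermost gene starts, the summit at *gst-22* was nearer to *clec-233*, and the summit at *gst-43* was nearer to *copa-1*. The pooled region with the signal of 14.7 was also at *gst-22* and nearer to *clec-233*. In replicate 2, with a background of 5.33%, neither group had one of the 1000 strongest regions. Of 77 cytosolic ribosomal protein genes, 73 had a pooled region, 16 had one of the 1000 strongest and 7 held a thresholded peak. The shares over all protein-coding genes were 73.1%, 5.31% and 0.591%. The median best pooled rank was 11900 for the redox genes, 20700 for superoxide dismutase and catalase, 22900 for glutathione S-transferases, 5260 for ribosomal protein genes and 15000 for all genes, counting genes without a region as last. In replicate 1 the redox genes had a median of 11900 and all genes 14800, and in replicate 2 the order was the other way, at 16700 and 14600. These differences were not tested.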

How the data were processed

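Regions of ChIP-seq for eGFP-tagged SKN-1 were taken from 4 ce11 lists, of pooled replicates, of replicate 1, of replicate 2 and of thresholded peaks. Per the labels' file listing, the deposited lists were derived from read alignments with a control, mix peaks with background, and served as input to a filter by irreproducible discovery rate. Caller and aligner: not given in the sources used here. The signal value per region is the authors' own. The deposited −log10 q-value has a ceiling and was not used in any count or rank. The 4 ce10 lists were not used here, as no ce10 genome was used. Windows came from Ensembl release 115 genes (WBcel235, the same assembly as ce11), sequence from the RefSeq copy of WBcel235. A region was placed by its summit, and ties in rank took the lower number. Python 3.11.15, numpy 2.4.6 and pandas 2.3.3 were used, and counting was tested on simulated data. The background is the same count over all 19973 protein-coding genes, and no test was run. The members, lists and rule for naming genes (all 8 members, and in wider lists those with one of the 1000 strongest pooled regions, of which there were 0) were chosen with earlier results of these data known. Depth is unknown.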

Additional observations from a re-analysis of the deposited data

How the results depend on the processing

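The 5 counts were recomputed under 37 alternatives, of which 22 stayed within 1.5 times the reported count. Genes with a pooled region (7) became 3 with the 2000 bp upstream only, 4 from 1000 bp upstream to 500 bp downstream and 4 when the weaker 50% of the list was left out. Pooled regions (13) became 5, 7 and 7 under these settings and 25 with 5000 bp upstream. Of all protein-coding genes, 41.7% had a pooled region from 1000 bp upstream to 500 bp downstream. In the full window, 49.6% had one up to rank 14806, close to the middle of the list. For the 2000 bp upstream only, no share over all genes was counted. Genes with a site near a pooled summit (2) became 1 without the weaker 50% and 5 with the core RTCAT in place of the full site. The core is part of the full site, so it matches at least as often. For neither setting was the share over all genes counted. Replicate 1 regions that overlap replicate 2 (3) became 0 upstream only, 0 from 1000 bp upstream to 500 bp downstream and 0 without the weaker 50% of each list; in the other direction, 1 replicate 2 region overlapped replicate 1. With 1 replicate's list in place of the pooled one, genes with one of the 1000 strongest regions ranged from 0 to 1 (*prdx-2*, replicate 1) and genes with a site near a summit from 1 to 3. Of 24 best ranks of genes with a region in both replicates, 8 moved by more than the SD between replicates. That SD comes from the ranks in the 2 replicates, which are also among the alternatives. It is widest where the replicates differ most, so this count does not measure how stable the ranks are. For *gss-1* there is no such SD. No paired analysis was possible because the samples form 1 group. The unknown depth limits what absence from a list means.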
